A study of Mus musculus with 4 samples.

Results

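The 10 genes followed here import cystine and make, recycle, break down and export glutathione. They were taken by symbol from the 27179 genes of the count table (Slc7a11, Slc3a2, Gclc, Gclm, Gss, Gsr, Chac1, Chac2, Ggct and Abcc1), and all 10 were among the 12675 genes with enough counts to be tested. RNA sequencing was done on B16F10, a pigmented mouse melanoma line that the labels give as wild type. In 2 libraries the cells had received ozonated olive oil, and in 2 they had received plain olive oil, in each case at 0.01% for 6 h. Both groups therefore carried an oil, and no untreated cells were analysed here. Separate cultures are not stated in the labels, so the p-values measure a spread between libraries that may be technical.

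Glutathione is a tripeptide of glutamate, cysteine and glycine, and it is the main thiol that cells use against peroxides and reactive aldehydes. Cystine enters through system xc-, a pair of chains encoded by Slc7a11 and Slc3a2, and is reduced to cysteine inside the cell. Glutamate cysteine ligase, made of the catalytic chain Gclc and the modifier chain Gclm, then joins glutamate to cysteine, and glutathione synthetase (Gss) adds glycine. Gsr returns oxidised glutathione to its reduced form, Chac1 and Chac2 cut glutathione inside the cell, Ggct acts on the gamma-glutamyl products, and the pump Abcc1 exports glutathione and its conjugates. In many cell types Slc7a11, Gclc, Gclm and Gsr are known targets of NRF2, and Slc7a11 and Chac1 are known targets of ATF4.

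The libraries held 22766948 and 30038784 counts for ozonated oil and 22539486 and 23377947 counts for plain oil. All 8 melanocyte lineage markers checked were tested, and their summed level was 22090 to 24560 CPM (counts scaled to the library total) with ozonated oil and 20600 to 25270 CPM with plain oil. Keratinocyte markers summed to 0.922 to 18.1 CPM with ozonated oil and 3.64 to 25.5 CPM with plain oil. Fibroblast, immune and endothelial markers each summed to no more than 6.06 CPM with ozonated oil and 8.56 CPM with plain oil.

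With ozonated oil the cystine-specific chain of the importer and both chains of glutamate cysteine ligase stood at higher levels, while the later synthesis step and the breakdown and export genes did not separate the groups. Slc7a11 was at 3.95-fold, Gclm at 2.33-fold and Gclc at 1.77-fold the plain oil level. By the quasi-likelihood test of edgeR, with p-values adjusted over all genes tested, 0 of the 10 genes passed the threshold of 0.05, as did 0% of all genes, so none is described as risen or fallen. In bulk RNA, a difference in every cell and a larger one in some of the cells cannot be told apart. Without adjustment 3 genes had a p below 0.05, all higher (Slc7a11, Gclm and Gclc), where 4.54% of all tested genes were higher and 5.29% lower at that level. In 5 genes (these 3, Slc3a2 and Gsr) the groups did not overlap and ozonated oil was higher, which held for 19.9% of all tested genes, while 20% were lower in the same way. By sign, 7 of 10 genes were higher with ozonated oil, against 54% of tested genes, and the median log2 change was 0.40 over the 10 and 0.035 over all genes tested.

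**Figure D1:**
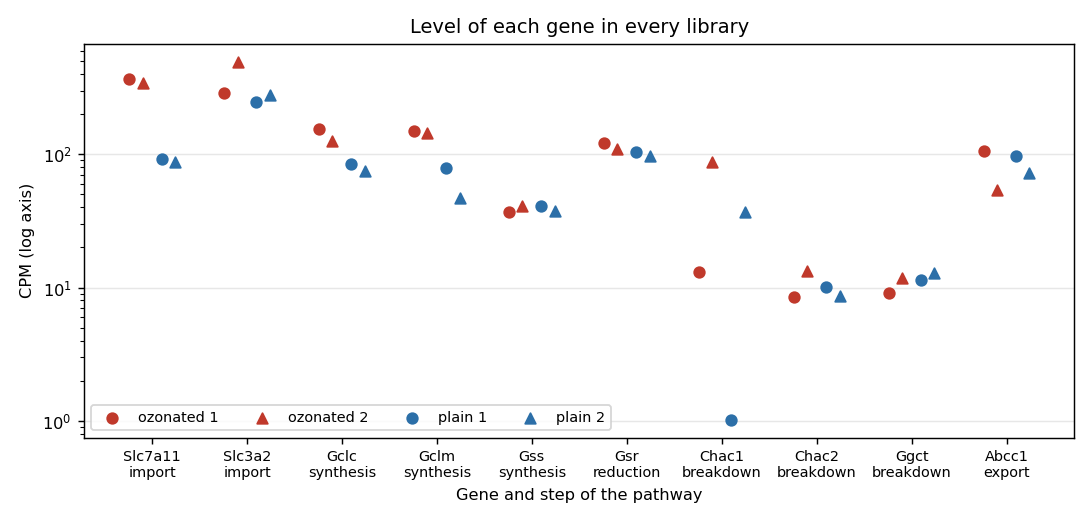
Level of the 10 genes in CPM on a log axis, with ozonated oil libraries in red and plain oil libraries in blue, and circles for library 1 and triangles for library 2 of each group. The Slc7a11 points of the groups lie far apart (366 and 346 CPM against 92.9 and 87.5 CPM), whereas the Chac1 points run from 1.02 to 87.0 CPM and the groups overlap.

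Slc7a11 (Entrez 26570, chr3:50364936-50499087, minus strand, GRCm38.p6) encodes the light chain that gives system xc- its cystine and glutamate specificity. It had 366 and 346 CPM in the ozonated oil libraries, against 92.9 and 87.5 CPM in the plain oil libraries. The libraries of each group lay close together, and the groups were far from overlapping. The means were 356 ± 14.1 CPM with ozonated oil and 90.2 ± 3.80 CPM with plain oil (SD, n = 2 each). The change on the log2 scale was 1.98 (standard error 0.18) with a 95% interval from 1.54 to 2.42. This was the smallest unadjusted p of all 12675 genes (3.01e-05), and its edgeR adjusted p was 0.166. Wald testing with DESeq2 gave the gene an adjusted p of 8.46e-16, and by that tool 0.931% of all genes were called higher. With edgeR it passed when ozonated oil library 1 was left out (adjusted p = 0.0185, 2.97% of all genes passing) or ozonated oil library 2 (adjusted p = 0.0441, 0.0229% passing). It did not pass when plain oil library 1 was left out (adjusted p = 0.148, 0.00764% passing) or plain oil library 2 (adjusted p = 0.0740, 0.281% passing).

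The sequence before the Slc7a11 start is shown because it carries the element TTGCATCA in duplicate, a composite site known to bind ATF4 with C/EBP-type partners. The 250 bases before the start in the RefSeq promoter table are given for Slc7a11 (chr3:50443614-50443863, minus strand) and for Chac1 (chr2:119350992-119351241, plus strand), 5′ to 3′ on GRCm38.p6. Capitals mark TTGCATCA or its reverse complement TGATGCAA. The Slc7a11 start of that table lies inside the longer RefSeq span of the gene. The same holds for the starts of Slc3a2, Gclm and Ggct, and all positions are counted from the starts of that table.
Slc7a11: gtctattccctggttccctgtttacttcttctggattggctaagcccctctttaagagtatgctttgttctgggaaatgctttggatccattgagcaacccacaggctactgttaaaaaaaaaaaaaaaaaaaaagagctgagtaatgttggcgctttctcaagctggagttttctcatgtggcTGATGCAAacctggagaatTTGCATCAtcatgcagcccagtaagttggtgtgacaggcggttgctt
Chac1: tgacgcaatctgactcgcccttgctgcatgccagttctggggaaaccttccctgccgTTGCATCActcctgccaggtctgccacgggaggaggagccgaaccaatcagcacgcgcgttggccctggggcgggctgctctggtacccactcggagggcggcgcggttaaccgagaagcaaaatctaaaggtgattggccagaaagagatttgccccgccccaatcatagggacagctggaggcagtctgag
In Slc7a11 the matches covered bases -66 to -59 (as TGATGCAA) and -47 to -40 (as TTGCATCA), counted back from the base before the start as -1. Chac1 held 1 match, at -193 to -186. The element was searched on both strands and was present in 0.791% of the 32851 promoter windows of the same length, and 2 windows, those of Slc7a11 and Chchd10, held it more than once. Of the 10 genes, 7 had a window in the table, and the element was absent from the windows of Slc3a2, Gclm, Gss, Chac2 and Ggct. The core of the antioxidant response element, TGACNNNGC on either strand, was found in 10.2% of windows, among them Gclm (GCACCGTCA, -134 to -126) and Ggct (GCGACGTCA, -174 to -166), and the palindromic AP-1 sequence TGANTCA in 6.75% of windows and in none of the 7. A match of letters is a description and shows no binding.

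Genes with the element before their start were then looked at in the same comparison. Of 60 tested genes that held TTGCATCA, 40 were higher with ozonated oil, and the median log2 change was 0.12. Over the 9645 tested genes with a window, 5225 were higher and the median was 0.035. At an unadjusted p below 0.05, 7 of the 60 (11.7%) were higher, against 4.60% of those with a window, and the groups did not overlap, with ozonated oil higher, in 23.3% of the 60 and 20.2% of those with a window. The 60 include Slc7a11, Chac1, Atf3 and Slc7a7, of which Slc7a7 was lower with ozonated oil, so these shares are not independent of the genes already described.

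Slc3a2 (Entrez 17254, chr19:8706882-8723369) encodes the heavy chain 4F2hc, which carries Slc7a11 and several other light chains to the plasma membrane. It had 290 and 495 CPM with ozonated oil, against 247 and 281 CPM with plain oil. The groups did not overlap, but ozonated oil library 1 was close to plain oil library 2 and ozonated oil library 2 stood well above the other three. The change on the log2 scale was 0.57 (standard error 0.29) with an interval from -0.13 to 1.27 (edgeR adjusted p = 0.604), and it was 0.12 when ozonated oil library 2 was left out and 0.87 when ozonated oil library 1 was. Per kilobase of its longest annotated transcript, Slc3a2 had the highest level of the 10 genes, at 139 CPM per kilobase with ozonated oil and 93.9 with plain oil. On the same per-length scale Slc7a11 was at 38.6 CPM per kilobase with ozonated oil and 9.78 with plain oil.

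The ratio between the chains of the importer was higher with ozonated oil in every pairing of libraries across groups. Slc7a11 over Slc3a2, as a ratio of CPM within a library, was 1.26 and 0.700 with ozonated oil, against 0.375 and 0.312 with plain oil. Both ozonated oil ratios were above both plain oil ratios, and the difference in mean log2 ratio was 1.46. An exact two-sided permutation test of 2 libraries against 2 cannot go below p = 0.333, which is the value found, with an adjusted p of 0.500 over the 3 ratios tested.

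Slc3a2 also serves other light chains, of which 4 of 5 listed were tested (Slc7a10 had no count). Slc7a5, the large neutral amino acid transporter LAT1, had 233 and 361 CPM with ozonated oil, against 213 and 343 CPM with plain oil. Its libraries numbered 2 were the high ones in both groups, and the groups overlapped. Slc7a6 had 53.7 and 38.3 CPM with ozonated oil, against 64.6 and 58.2 CPM with plain oil, and Slc7a7, also a light chain for cationic amino acids, had 6.36 and 2.99 CPM with ozonated oil, against 10.3 and 6.84 CPM with plain oil. Both were lower without overlap, as were 20% of all tested genes (log2 changes of -0.42 and -0.87, edgeR adjusted p = 0.623 and 0.601). For Slc7a6 the change was -0.71 when ozonated oil library 1 was left out and -0.20 when ozonated oil library 2 was, and for Slc7a7 it was -1.54 and -0.44 in the same order, and -0.55 without plain oil library 1. Slc7a8 had a log2 change of -0.44 at 0.749 to 2.33 CPM over the libraries. Of these 4 genes, 1 was higher and 3 were lower, where 54% of all tested genes were higher. The median log2 change of the 4 was -0.43, and 0 of them passed adjusted or unadjusted.

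**Figure D2:**
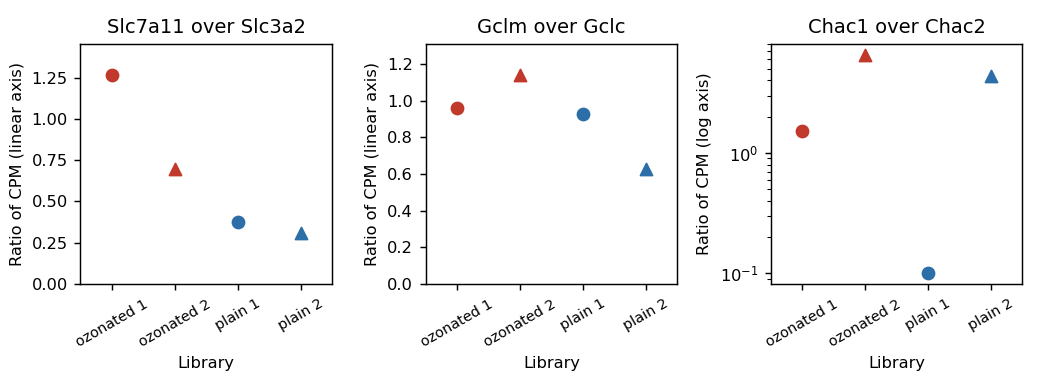
Ratios of CPM between partner genes within each library, with ozonated oil in red and plain oil in blue. Slc7a11 over Slc3a2 is 1.26 and 0.700 in the ozonated oil libraries and 0.375 and 0.312 in the plain oil libraries, Gclm over Gclc runs from 0.628 to 1.14, and Chac1 over Chac2, on a log axis, is lowest in plain oil library 1 (0.100).

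The first step of synthesis was higher in both of its chains. Gclm (Entrez 14630, chr3:122245487-122267215) had 149.8 and 144 CPM with ozonated oil, against 78.9 and 46.9 CPM with plain oil. The ozonated oil libraries were nearly equal, and the plain oil libraries differed from each other. The means were 147 ± 4.30 CPM with ozonated oil and 62.9 ± 22.6 CPM with plain oil (SD, n = 2 each), a change of 1.22 on the log2 scale (standard error 0.27) with an interval from 0.57 to 1.88 (edgeR unadjusted p = 0.00377, adjusted p = 0.260).

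Gclc (Entrez 14629, chr9:77754535-77794489) had 156 and 126 CPM with ozonated oil, against 84.8 and 74.7 CPM with plain oil. The groups did not overlap, and the ozonated oil libraries were the higher ones. The change on the log2 scale was 0.82 (standard error 0.19) with an interval from 0.36 to 1.29 (edgeR unadjusted p = 0.00486, adjusted p = 0.273). By DESeq2 both chains passed, with adjusted p = 0.00613 for Gclm and 0.0454 for Gclc. Across the fits that left out 1 library, the log2 change ran from 0.90 to 1.64 for Gclm and from 0.63 to 0.96 for Gclc. The annotation places 2 other genes over exons of Gclm, neither of them in the count table. Gm6061 overlaps on the same strand over 244 bases and Gm17494 on the opposite strand over 296 bases. Whether reads were counted by strand is not stated in the sources used here, and counting by strand would not separate Gm6061.

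Modifier over catalytic chain, Gclm over Gclc, was 0.960 and 1.14 with ozonated oil, against 0.930 and 0.628 with plain oil. The groups did not overlap, though ozonated oil library 1 and plain oil library 1 were close to each other. The difference in mean log2 ratio was 0.45 (exact permutation p = 0.333, the smallest the design allows). It was 0.73 without plain oil library 1 and 0.17 without plain oil library 2.

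Gss (Entrez 14854, chr2:155563181-155592810), the enzyme of the second step, differed little between the groups. It had 36.7 and 40.7 CPM with ozonated oil, against 41.0 and 37.5 CPM with plain oil. The ranges lay on top of each other, and the log2 change was -0.022 with an interval from -0.46 to 0.41 (edgeR adjusted p = 0.981) and a sign that turned when plain oil library 1 or ozonated oil library 1 was left out. That interval leaves room for a change of up to 0.728-fold or 1.33-fold. Exons of Gss overlap those of Acss2 on the opposite strand over 395 bases, and Acss2 had 12.4 and 13.5 CPM with ozonated oil, against 10.6 and 12.0 CPM with plain oil. The antisense genes Gssos2 (385 bases) and Gssos1 (322 bases) also overlap Gss exons on the opposite strand and are not in the count table.

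Gsr (Entrez 14782, chr8:33653238-33698162), glutathione reductase, had 122 and 109.5 CPM with ozonated oil, against 104 and 97.7 CPM with plain oil. The groups did not overlap, but the gap between ozonated oil library 2 and plain oil library 1 was small. The change on the log2 scale was 0.20 (standard error 0.17) with an interval from -0.21 to 0.61 (edgeR adjusted p = 0.789).

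**Figure D3:**
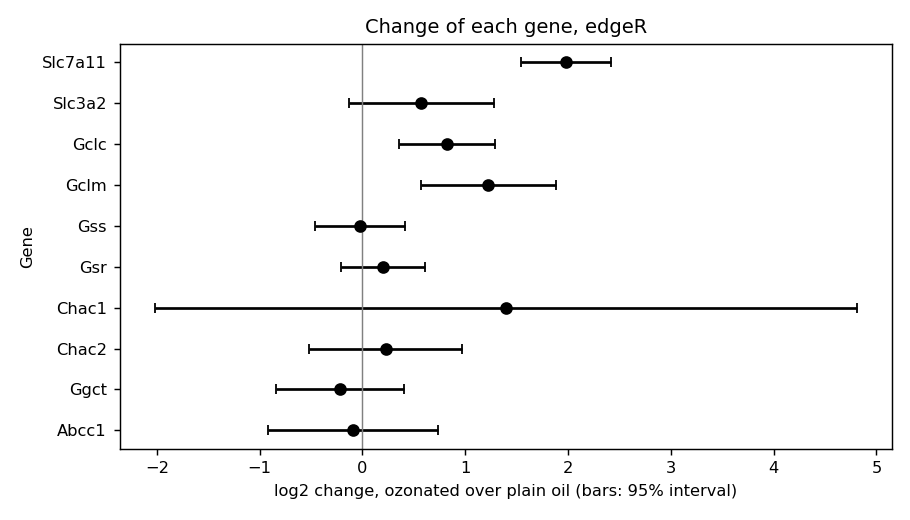
The log2 change of ozonated over plain oil for each of the 10 genes by edgeR, with bars for the 95% interval. The intervals of Slc7a11, Gclm and Gclc lie above 0, and that of Chac1 runs from -2.02 to 4.81.

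The breakdown genes showed no common direction. Chac1 (Entrez 69065, chr2:119351242-119354326), a gamma-glutamyl cyclotransferase that is induced in many stress responses, had 13.0 and 87.0 CPM with ozonated oil, against 1.02 and 37.0 CPM with plain oil. Library 2 was high and library 1 low in both groups, and the value of plain oil library 2 lay above that of ozonated oil library 1. The counts behind these levels were 297 and 2442 with ozonated oil and 24 and 882 with plain oil. The change on the log2 scale was 1.40 (standard error 1.40) with an interval from -2.02 to 4.81 (edgeR adjusted p = 0.814). Leaving out ozonated oil library 2 turned it to -0.55, and leaving out ozonated oil library 1 gave 2.16. It was 0.44 when plain oil library 1 was left out and 5.62 when plain oil library 2 was left out, where it passed (edgeR adjusted p = 0.00640).

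Chac2 (Entrez 68044, chr11:30976707-30986365), the relative of Chac1 that is expressed at a steadier level in many tissues, had 8.55 and 13.3 CPM with ozonated oil, against 10.2 and 8.57 CPM with plain oil. The groups overlapped and the log2 change was 0.23, with an interval from -0.52 to 0.97 (edgeR adjusted p = 0.872), and it was -0.14 when ozonated oil library 2 was left out. Chac1 over Chac2 was 1.52 and 6.53 with ozonated oil, against 0.100 and 4.32 with plain oil, and the groups overlapped (difference in mean log2 ratio 2.26, exact permutation p = 0.667). That difference ran from -0.46 without plain oil library 1 to 4.98 without plain oil library 2. Ggct (Entrez 110175, chr6:54985095-54992960), which forms oxoproline from gamma-glutamyl amino acids, had 9.03 and 11.8 CPM with ozonated oil, against 11.4 and 12.8 CPM with plain oil. Its log2 change was -0.22 with an interval from -0.84 to 0.40 (edgeR adjusted p = 0.849). Per kilobase of the longest annotated transcript, Ggct had the lowest level of the 10 genes, at 2.63 CPM per kilobase with ozonated oil and 3.06 with plain oil. That transcript has 3.96 kb, against 1.315 kb for Chac2, whose CPM was similar.

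Abcc1 (Entrez 17250, chr16:14361453-14474878), the exporter also known as MRP1, had 105.5 and 53.6 CPM with ozonated oil, against 96.6 and 72.6 CPM with plain oil. Library 1 was the higher one in both groups, the reverse of Chac1, and the plain oil values lay between the ozonated oil values. The log2 change was -0.089 with an interval from -0.91 to 0.74 (edgeR adjusted p = 0.958), and it was 0.13 when plain oil library 1 was left out and 0.31 when ozonated oil library 2 was.

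Regulators of these genes were set beside them. Nfe2l2, which encodes NRF2, had 139 and 145 CPM with ozonated oil, against 153 and 147 CPM with plain oil, a log2 change of -0.072. Its repressor partner gene Keap1 had 49.6 and 49.3 CPM with ozonated oil, against 47.9 and 45.7 CPM with plain oil. These transcript levels differed little between the groups, and they do not measure the amount or activity of the NRF2 protein. Bach1, which encodes a repressor at antioxidant response elements, had 96.2 and 80.5 CPM with ozonated oil, against 50.9 and 46.7 CPM with plain oil (log2 change 0.86, edgeR adjusted p = 0.248).

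Atf4, which encodes a transcription factor of amino acid and ER stress, varied between the libraries of a group, at 279 and 716 CPM with ozonated oil, against 131.5 and 415 CPM with plain oil. As with Chac1, plain oil library 2 was above ozonated oil library 1, and the log2 change was 0.87 (edgeR adjusted p = 0.749). Trib3, an ATF4 and CHOP target that feeds back on both, had 47.1 and 180.2 CPM with ozonated oil, against 6.06 and 36.3 CPM with plain oil. Ddit3, which encodes CHOP, had 51.5 and 153 CPM with ozonated oil, against 15.97 and 28.2 CPM with plain oil, and Atf3 had 28.7 and 73.6 CPM with ozonated oil, against 3.60 and 6.97 CPM with plain oil. In each of these the library numbered 2 was the higher one of its group, as in Chac1 and Slc3a2, whereas Slc7a11 differed little between the libraries of a group. Differences between numbered libraries were not particular to these genes. Over all tested genes, same-numbered libraries deviated together (correlation 0.556), and Bach1 and Abcc1 had library 1 higher in both groups. The part of this difference between libraries in the values of Chac1 and Slc3a2 was not tested.

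**Figure D4:**
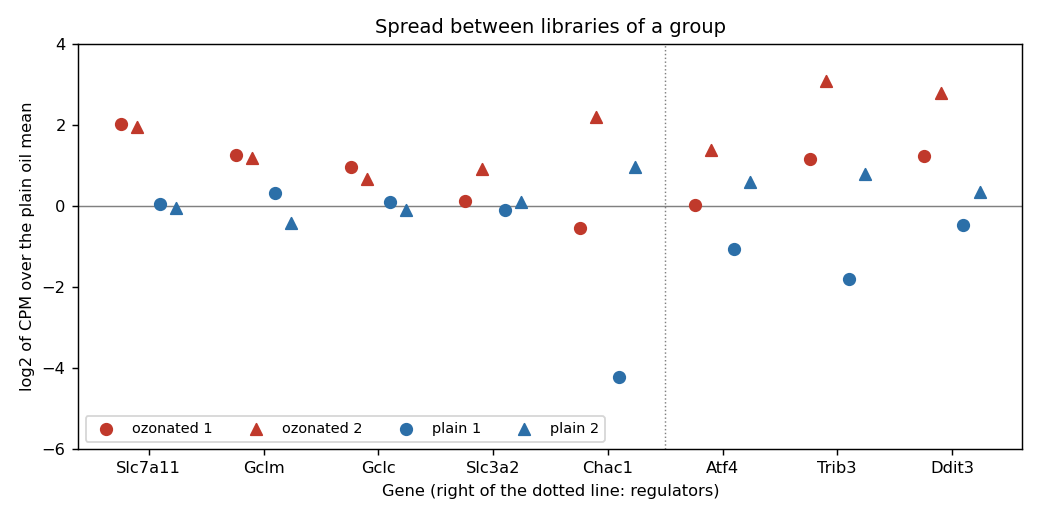
Log2 of CPM over the plain oil mean in each library for 5 of the 10 genes and, right of the dotted line, 3 of the 19 regulators. All 3 had library 2 higher in both groups. Regulators without that pattern, such as Bach1, are not shown. Slc7a11 sits at 2.02 and 1.94 with ozonated oil and at 0.042 and -0.044 with plain oil, while Chac1 sits at -0.55 and 2.19 with ozonated oil and at -4.22 and 0.96 with plain oil.

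Of 19 regulators tested, 13 were higher and 6 lower with ozonated oil, where 54% of all tested genes were higher. The median log2 change of the 19 was 0.33. At an unadjusted p below 0.05, 6 were higher and 1, Myc, was lower, against 4.54% and 5.29% of all tested genes, and 0 passed after adjustment by edgeR. Without overlap 7 were higher and 5 lower, against 19.9% and 20% of all tested genes. Myc, a transcription factor of growth that is also reported to bind glutathione synthesis genes in human cells, had 9.47 and 15.8 CPM with ozonated oil, against 83.9 and 81.5 CPM with plain oil. By DESeq2, where 271 of all genes passed, so did Myc, Atf3, Ddit3 and Bach1 (adjusted p = 6.58e-15, 7.72e-09, 4.79e-04 and 0.0287). Trib3 did not pass by DESeq2 (adjusted p = 0.615).

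The genes whose pattern over the 4 libraries was most like that of 3 of the 10 were found by Euclidean distance of centred log2(CPM + 1), among 9941 other genes with a mean of at least 5 CPM. Nearest to Slc7a11 were Eno2 (0.25), Sap30 (0.44), Crebrf (0.47) and Jun (0.49). Nearest to Gclm were Srxn1, the sulfiredoxin gene (0.17), Atg14 (0.28), Sgk1 (0.30) and Gabarapl1 (0.39). Srxn1 had 217 and 208 CPM with ozonated oil, against 130.3 and 76.4 CPM with plain oil, so it shared with Gclm a plain oil library 2 below plain oil library 1. Chac1 had no near neighbour on this scale, with Nupr1 (1.19), Trib3 (1.49), Ankrd37 (1.73) and Slc1a4 (1.98) as the least distant.

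Other routes of cysteine and glutamate supply did not move in 1 direction. Of 10 tested genes 3 were higher and 7 lower, where 54% of all tested genes were higher, and the median log2 change of the 10 was -0.093. At an unadjusted p below 0.05 there was 1 each way, where 4.54% of all tested genes were higher and 5.29% lower. Ctns, the lysosomal cystine exporter, had 60.8 and 74.4 CPM with ozonated oil, against 30.9 and 42.5 CPM with plain oil (log2 change 0.88, edgeR adjusted p = 0.294). Mat2a, which makes the methyl donor S-adenosylmethionine upstream of transsulfuration, had 253 and 178 CPM with ozonated oil, against 407 and 364.5 CPM with plain oil (log2 change -0.84, edgeR adjusted p = 0.333). The glutamine carrier gene Slc1a5 had 32.8 and 44.6 CPM with ozonated oil, against 52.0 and 57.5 CPM with plain oil, and Gls2, a glutaminase gene, had at most 2.72 CPM with ozonated oil and 1.40 CPM with plain oil. Cth, the last enzyme of transsulfuration, had 9.12 and 17.3 CPM with ozonated oil, against 12.6 and 16.8 CPM with plain oil, and Cbs, which precedes it, had at most 0.482 CPM with ozonated oil and 0.593 CPM with plain oil.

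Genes listed as enzymes that use glutathione, or as related redox enzymes, were higher by sign in 15 of 21 tested genes (71.4%, against 54% of all genes tested). Their median log2 change was 0.17. With a library left out, the number of higher genes ran from 12 to 19. Without overlap 7 were higher and 3 lower, where 19.9% of all tested genes were higher and 20% lower in that way. Mgst1, a membrane-bound glutathione transferase, had 87.3 and 73.6 CPM with ozonated oil, against 58.5 and 34.9 CPM with plain oil (log2 change 0.78, edgeR adjusted p = 0.436). It was the single gene of this list with an unadjusted p below 0.05, where 4.54% of all tested genes were higher at that level. Esd, which hydrolyses S-formylglutathione, had 161 and 161 CPM with ozonated oil, against 131 and 103.5 CPM with plain oil. The transferase genes Gstt2 and Gstm5 had log2 changes of 0.65 and 0.34 (edgeR adjusted p = 0.679 and 0.684).

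Transport and turnover of glutathione outside the 10 genes showed no common direction. Of 14 tested genes 7 were higher and 7 lower, where 54% of all tested genes were higher. The median log2 change of the 14 was -0.0040. Abcc5, an organic anion pump, had 121 and 101 CPM with ozonated oil, against 66.1 and 82.4 CPM with plain oil (log2 change 0.58, edgeR adjusted p = 0.425). It was the single gene here with an unadjusted p below 0.05, where 4.54% of all tested genes were higher at that level. Lap3, a peptidase gene, had 64.9 and 78.1 CPM with ozonated oil, against 85.0 and 97.6 CPM with plain oil. Dpep1 and Abcc2 had log2 changes of 1.02 and 1.09 but had at most 1.39 and 2.72 CPM in any library.

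**Figure D5:**
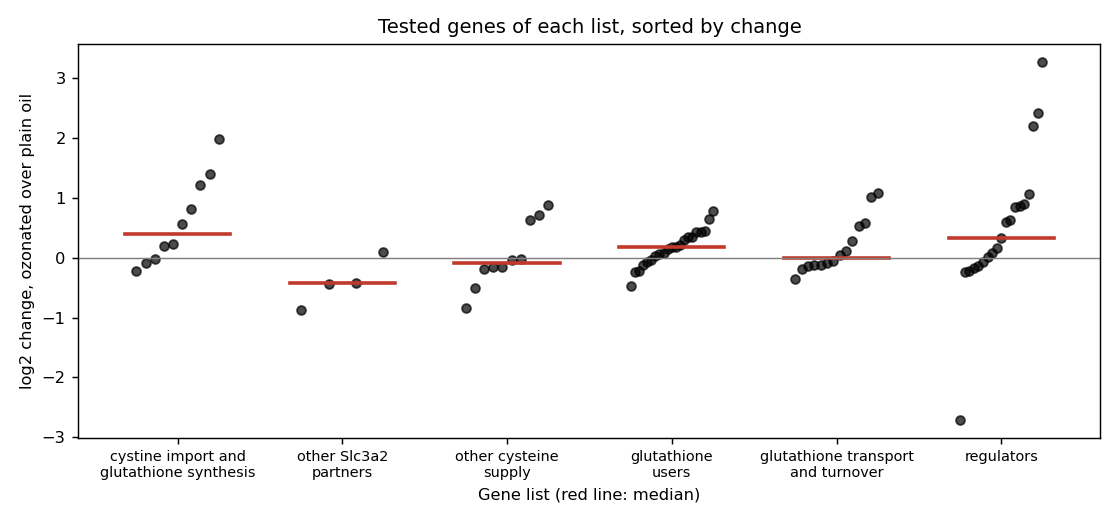
The log2 change of ozonated over plain oil for each tested gene of the 10 and of 5 related lists, sorted within a list, with the median as a red line. The medians run from -0.43 for the other Slc3a2 partners to 0.40 for the 10 genes, and no gene shown passed the edgeR test over all genes.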

How the data were processed

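The authors deposited raw gene counts as whole numbers, unnormalized, in 4 columns that each matched 1 library by name. Alignment and assembly tools in the submitters' processing notes are HISAT2 2.1.0, StringTie 1.3.4d, bedtools 2.27.1 and SAMtools 1.9, with build mm10. How reads were assigned to genes, by strand or when multiply mapped, is not stated in the sources used here. Genes without a symbol (1319) held 0.197% to 0.218% of counts.

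In R 4.3.3, edgeR 4.0.16 was used to filter genes (filterByExpr), scale libraries (TMM) and compare groups by the two-sided quasi-likelihood F-test, with Benjamini-Hochberg adjusted p over the 12675 genes tested. The standard error is the change divided by the root of F, and the interval uses the moderated degrees of freedom of each gene. The tests were run on simulated counts drawn with less spread between libraries than these data show and with no deviation shared between libraries. That check therefore does not cover the spread seen here. Alternatives were DESeq2 1.42.0, median-of-ratios scaling, other filters, the replicate number as a block and each library left out. Promoter sequences, coordinates and Entrez identifiers are from RefSeq on GRCm38.p6, the assembly of mm10, and transcript lengths from GENCODE.

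The 10 genes, the lists and the motifs were chosen with earlier results of these data known. Beside the 10, up to 4 genes of each of 5 lists were named by smallest p, and 4 by likeness of pattern to Slc7a11, Gclm and Chac1. Keap1, Nfe2l2, Atf4, Cth, Cbs, Acss2 and Chchd10 were named after their values were seen. Libraries of a group differed beyond counting noise, with chi-square over its degrees of freedom at 120.4 for ozonated oil and 37.0 for plain oil.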

Additional observations from a re-analysis of the deposited data

How the results depend on the processing

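Of 90 values of the 10 genes under 9 alternatives, 84 kept their direction, and Slc7a11, Gclm, Gclc, Slc3a2, Gsr and Ggct kept it in all 9. Over all genes the edgeR count of 0 became 4 with no low-count filter, 271 with DESeq2 and 1 to 389 with a library left out, and 1245 genes had an unadjusted p below 0.05. Of the 10 genes 1 (Slc7a11) passed with no filter, 3 with DESeq2, and 0 to 1 with a library left out. The replicate number as a block gave 1160 genes, among them 4 of the 10 (Slc7a11, Gclm, Gclc and Chac1, edgeR adjusted p = 2.90e-08, 4.67e-05, 0.00258 and 2.76e-05). Same-numbered libraries deviated together (correlation 0.556 over genes), but there are 2 pairs and no label ties a number to a shared culture or day, so no pairing is claimed.

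With a library left out, signs reversed within these log2 ranges: Abcc1 -0.69 to 0.31, Chac1 -0.55 to 5.62, Chac2 -0.14 to 0.48, Gss -0.11 to 0.043, Abcc2 -0.31 to 1.78, Slc1a4 -0.14 to 2.42, Slc7a5 -0.26 to 0.48 and Slc7a8 -1.45 to 0.15. The filter was run anew in each of these fits, so the number of list genes tested could differ from the main fit. The number of higher genes was then 3 to 10 for glutathione transport and turnover, 5 to 6 for other cysteine supply and 0 to 1 for other Slc3a2 partners. It was 12 to 19 for glutathione users, 11 to 13 for regulators and 6 to 9 for the 10 genes. The cause was not tested. Lone libraries were assumed to vary like the other group.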
